A study of Homo sapiens with 4 samples.

Results

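Integrin and laminin genes were examined on 4 Clariom S arrays of prostate cancer cells. The list held 35 genes, 25 integrin subunits and 10 laminin chains, found on the array by gene symbol. A named probe set was found for 31 of them, 24 integrins and 7 laminins, out of 17687 named genes on the array, with 1 probe set per gene. ITGA1, LAMA3, LAMA5 and LAMB3 had no named probe set, so their expression was not analysed here.

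The arrays were titled PC3 miR-410, PC3 miR-CON, C42B miR-410 and C42B miR-CON, with 1 array for each. PC3 and C42B are androgen-independent prostate cancer cell lines, and C42B derives from LNCaP. The cells titled miR-410 carried a stably transfected pMIR vector with the miR-410 precursor and a GFP reporter under a CMV promoter, and the cells titled miR-CON carried a scrambled sequence in its place. All 4 cultures were selected with puromycin and harvested while growing, and each is 1 stable transfectant of 1 line, so a difference between 2 arrays can also be a difference between 2 transfectants. For the arrays titled PC3, the genotype and description fields name the opposite construct from the title. For the arrays titled C42B, all fields name the same construct. Arrays are called by their titles here.

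Integrins are cell surface receptors built from 1 alpha and 1 beta subunit, which bind matrix proteins outside the cell and connect through adaptor proteins to actin or intermediate filaments inside it. The alpha subunit largely sets the ligand, and most alpha subunits pair with the beta 1 or the beta 2 subunit, or, for the alpha V subunit, with several beta subunits. Laminins are trimers of 1 alpha, 1 beta and 1 gamma chain, and they form the sheet of the basement membrane on which epithelial cells sit. In the normal prostate, basal cells hold on to laminin through the alpha 6 beta 4 integrin of hemidesmosomes and through the alpha 3 beta 1 and alpha 6 beta 1 integrins, and loss of the beta 4 subunit in prostate carcinoma is well described.

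The line markers went against the line titles. Values are RMA values, background-corrected and normalized probe set signals on a log2 scale, and a gene was called between lines at an adjusted p under 0.05 (limma, Benjamini-Hochberg over all 17687 genes) and a difference of at least 2-fold. Of 8 measured LNCaP lineage markers, 6 were called higher and 0 lower on the arrays titled PC3, with the largest log2 differences for FOLH1 (7.95), KLK3 (4.15) and KLK2 (4.02) and the smallest called ones for TMPRSS2 (3.83), STEAP2 (2.21) and SLC45A3 (1.97). Of 10 measured PC3 markers, 10 were called lower on the arrays titled PC3, from ANXA1 (-7.95), PLAU (-5.92) and CXCL8 (-5.62) to S100A2 (-3.74), MET (-2.81) and VIM (-2.51). TMPRSS2 was 14.2-fold higher, or 30.7-fold without the array titled C42B miR-CON and 6.61-fold without C42B miR-410, and S100A2 was 13.4-fold lower, or 6.63-fold and 27.0-fold without the same arrays. The mean RMA value over the LNCaP markers was 9.87 (miR-410) and 9.60 (miR-CON) on the arrays titled PC3, against 6.31 (miR-410) and 6.80 (miR-CON) on the arrays titled C42B. That over the PC3 markers was 5.41 (miR-410) and 5.49 (miR-CON) on the arrays titled PC3, against 10.11 (miR-410) and 10.28 (miR-CON) on the arrays titled C42B. Every signed difference between lines is therefore given by title, and its sign would turn if the line names were exchanged. Pearson's r over all probe sets was 0.9896 between the arrays titled PC3 and 0.9798 between the arrays titled C42B, and 0.8814 to 0.8863 between lines. Array medians over named genes lay between 6.54 and 6.58.

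The construct and 4 of the genes can be shown by their sequences, taken from RefSeq on GRCh38.p14. The mature miR-410-3p, encoded at chr14:101065961-101065981 on the plus strand, is shown with its seed (bases 2 to 8) in capitals, since this is the stretch by which a microRNA pairs with its targets. The 250 bases before the annotated start are shown for ITGA2, ITGB8 and LAMB1, which were called lower on the arrays titled PC3, and for ITGB6, which like ITGB8 encodes a partner of the alpha V subunit. Capitals mark the GC box GGGCGG on either strand, except in ITGB6, where they mark the E-box CAGGTG, here on the opposite strand.
miR-410-3p: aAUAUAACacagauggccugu
ITGA2: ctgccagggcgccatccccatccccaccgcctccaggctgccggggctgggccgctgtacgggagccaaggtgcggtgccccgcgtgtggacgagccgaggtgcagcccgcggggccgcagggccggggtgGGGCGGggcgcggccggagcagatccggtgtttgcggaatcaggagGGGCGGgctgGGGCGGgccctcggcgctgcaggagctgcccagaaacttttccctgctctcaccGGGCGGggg
ITGB8: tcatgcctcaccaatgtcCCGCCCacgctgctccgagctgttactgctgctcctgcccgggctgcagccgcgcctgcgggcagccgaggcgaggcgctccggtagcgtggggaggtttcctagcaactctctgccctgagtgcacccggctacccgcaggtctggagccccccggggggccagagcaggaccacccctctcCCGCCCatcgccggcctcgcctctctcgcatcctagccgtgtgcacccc
LAMB1: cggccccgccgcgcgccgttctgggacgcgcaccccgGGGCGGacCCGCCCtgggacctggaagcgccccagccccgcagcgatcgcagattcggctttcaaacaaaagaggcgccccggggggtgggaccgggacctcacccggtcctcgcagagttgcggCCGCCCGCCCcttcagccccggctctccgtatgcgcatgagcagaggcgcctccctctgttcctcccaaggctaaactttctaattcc
ITGB6: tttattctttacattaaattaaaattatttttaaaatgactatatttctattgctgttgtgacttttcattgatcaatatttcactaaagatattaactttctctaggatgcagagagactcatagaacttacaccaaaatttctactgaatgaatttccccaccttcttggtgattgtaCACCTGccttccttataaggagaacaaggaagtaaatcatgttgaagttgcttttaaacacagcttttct

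These windows lie at chr5:52989102-52989351 (plus strand) for ITGA2, chr7:20330650-20330899 (plus strand) for ITGB8, chr7:108003162-108003411 (minus strand) for LAMB1 and chr2:160200273-160200522 (minus strand) for ITGB6. ITGA2 had 4 GC boxes and 76.4% G and C, ITGB8 had 2 and 71.2%, and LAMB1 had 4 and 70.4%, with a pair of its boxes overlapping. The ITGB6 window had no GC box, 0 CpG and 30% G and C, as compared to medians of 11 CpG and 58.0% over 35116 promoters. The promoter table matched 25 of the 35 genes with 32 promoters, among them ITGA1, LAMA3, LAMA5 and LAMB3, which had no named probe set. Of these 32, 17 held a GC box (42.6% of all promoters did), 7 the E-box (17.5%), 2 the AP-1 motif TGANTCA (6.57%) and 2 the TATA box TATAAA (10.7%), each searched on both strands. The AP-1 motif lay only in promoters of LAMA3 and LAMB3. The shares are descriptions of the windows and were not related to the measured values.

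Between lines, 8 of the 31 genes were called lower on the arrays titled PC3 and 1 was called higher. The genes called lower were the integrin subunits ITGA2, ITGA3, ITGA6, ITGB1, ITGB3, ITGB4 and ITGB8 and the laminin chain LAMB1, and the gene called higher was ITGAE. The 8 genes were 25.8% of those measured, against 8.42% of all genes called lower on the arrays titled PC3, and the 1 gene was 3.23%, against 8.4% of all genes called higher. The median log2 difference was -0.30 over the 31 genes and 0.03 over all genes, and the median absolute difference was 0.47 and 0.35. The log2 difference is the mean of the 2 arrays titled PC3 minus the mean of the 2 arrays titled C42B. Since the 2 arrays of a line carry different constructs, its error includes the construct difference.

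For 17 of the 31 genes (54.8%) both arrays titled PC3 lay below both arrays titled C42B, an order that 29.4% of all genes had. For 7 genes (22.6%) both arrays titled PC3 lay above both arrays titled C42B, as did 35.2% of all genes, and for 7 genes the lines overlapped. All 7 genes whose lines overlapped were integrins. Of the 31 genes, 15 lay below the median of all named genes on every array, among them ITGB3 and ITGB6, and 11 lay at or above it on every array. Of all 17687 genes, 7476 lay below it and 7465 at or above it on every array. In RNA from whole cultures, fewer cells with a transcript and less of it per cell cannot be told apart.

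**Figure D1:**
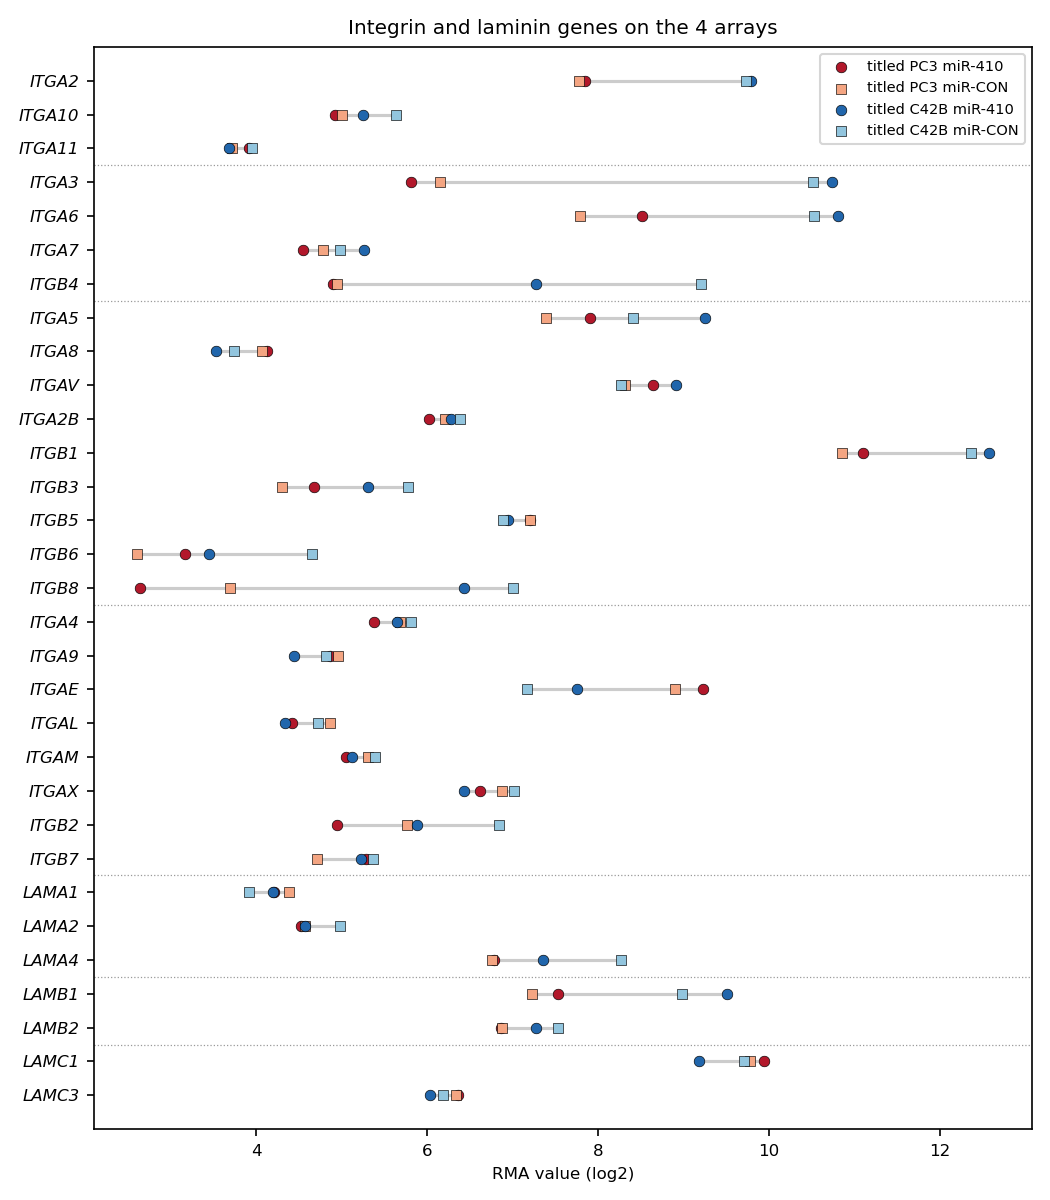
RMA value (log2, horizontal axis) of each of the 31 genes on the 4 arrays, 1 point per array, with grey lines spanning the 4 values and dotted lines separating the functional groups. ITGA3, ITGB4 and ITGB8 have the widest gaps between the red and orange points of the arrays titled PC3 and the blue points of the arrays titled C42B, and ITGAE has its red and orange points on the right.

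The laminin-binding integrins had the lowest median line difference of the functional groups (-2.92 over 4 subunits, ITGB1 being counted with the RGD receptors). Of the 4, 3 were called lower and 0 higher on the arrays titled PC3, where 8.42% and 8.4% of all genes were. ITGA3, which pairs with the beta 1 subunit in the alpha 3 beta 1 receptor, had RMA values of 5.81 (miR-410) and 6.15 (miR-CON) on the arrays titled PC3, against 10.74 (miR-410) and 10.52 (miR-CON) on the arrays titled C42B. The 2 lines were far apart and the 2 arrays of each line were close together. The log2 difference was -4.65 ± 0.20 (SE, 2 arrays per line, 95% interval -5.14 to -4.15), a 25-fold lower value on the arrays titled PC3 (limma, adjusted p = 0.000143), and ranked 149 from the lowest of 17687 genes.

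ITGA6, which forms alpha 6 beta 1 and alpha 6 beta 4, had 8.52 (miR-410) and 7.79 (miR-CON) on the arrays titled PC3, against 10.81 (miR-410) and 10.53 (miR-CON) on the arrays titled C42B. Both arrays titled PC3 were lower, and they also differed from each other. This amounted to a log2 difference of -2.51 ± 0.28 (SE, interval -3.22 to -1.81, 5.72-fold, adjusted p = 0.00292).

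ITGB4, the beta 4 subunit that anchors keratin filaments at hemidesmosomes, had 4.90 (miR-410) and 4.94 (miR-CON) on the arrays titled PC3, against 7.27 (miR-410) and 9.20 (miR-CON) on the arrays titled C42B. The arrays titled PC3 were alike and below the array median, and the arrays titled C42B were both higher but far from each other. The log2 difference was -3.32 ± 0.60 (SE, interval -4.81 to -1.83, 9.96-fold, adjusted p = 0.0133). It was -2.35 (5.11-fold) without the array titled C42B miR-CON and -4.28 (19.4-fold) without the array titled C42B miR-410. With 1 array left out, a gene's own spread comes only from the 2 arrays of the other line. Calls gained or lost in such fits below rest on that spread. ITGA7, the alpha 7 subunit known from muscle, had values of 4.55 to 4.78 on the arrays titled PC3, against 4.98 to 5.26 on the arrays titled C42B, and its difference of -0.45 was not called (adjusted p = 0.149).

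Among the collagen receptors, ITGA2 was called and the others were not. ITGA2, the alpha 2 subunit of alpha 2 beta 1, which binds fibrillar collagens and also laminin, had 7.85 (miR-410) and 7.78 (miR-CON) on the arrays titled PC3, against 9.79 (miR-410) and 9.73 (miR-CON) on the arrays titled C42B. The arrays of a line differed by less than 0.1 and the lines by far more. Between lines the difference was -1.94 ± 0.16 (SE, interval -2.33 to -1.54, 3.83-fold, adjusted p = 0.001). ITGA10, known from cartilage, differed by -0.48 (adjusted p = 0.139), and ITGA11, known from fibroblasts, by -0.00 (adjusted p = 0.991), and both lay below the array median on every array.

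ITGB1, the beta 1 subunit shared by the collagen, laminin and fibronectin receptors above, had 11.10 (miR-410) and 10.85 (miR-CON) on the arrays titled PC3, against 12.58 (miR-410) and 12.37 (miR-CON) on the arrays titled C42B. It was thus lower on both arrays titled PC3, together with its partners ITGA2, ITGA3 and ITGA6. It differed by -1.50 ± 0.18 (SE, interval -1.96 to -1.04, 2.82-fold, adjusted p = 0.00399). ITGA5, which pairs with it in the fibronectin receptor, had 7.91 (miR-410) and 7.39 (miR-CON) on the arrays titled PC3, against 9.25 (miR-410) and 8.41 (miR-CON) on the arrays titled C42B. The arrays titled PC3 were the lower ones here too, but the difference of -1.19 ± 0.34 (SE, interval -2.02 to -0.35, 2.28-fold) was not called (adjusted p = 0.0524). It was called under 4 of 10 alternatives, among them leaving out the array titled C42B miR-CON (-1.61, against -0.76 without C42B miR-410).

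ITGAV, the alpha V subunit that binds RGD motifs in vitronectin, fibronectin and the latent forms of TGF-beta, had 8.64 (miR-410) and 8.32 (miR-CON) on the arrays titled PC3, against 8.91 (miR-410) and 8.27 (miR-CON) on the arrays titled C42B. The lines overlapped, and the difference of -0.11 had an interval of -0.77 to 0.55 (adjusted p = 0.818). Of its beta partners other than ITGB1, ITGB8 and ITGB3 were called lower and ITGB5 and ITGB6 were not called.

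ITGB8, whose alpha V beta 8 receptor activates latent TGF-beta, had 2.64 (miR-410) and 3.69 (miR-CON) on the arrays titled PC3, against 6.43 (miR-410) and 7.01 (miR-CON) on the arrays titled C42B. Only the value on the array titled C42B miR-CON lay at or above the array median. Within each line the array titled miR-410 was the lower one, an order that turns for the arrays titled PC3 by their genotype and description fields. The log2 difference between lines was -3.55 ± 0.39 (SE, interval -4.53 to -2.58, 11.7-fold, adjusted p = 0.00275).

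ITGB3, the beta 3 subunit of the vitronectin receptor and of the platelet fibrinogen receptor, had 4.67 (miR-410) and 4.30 (miR-CON) on the arrays titled PC3, against 5.31 (miR-410) and 5.78 (miR-CON) on the arrays titled C42B. All 4 values lay below the array median. The log2 difference was -1.06 ± 0.24 (SE, interval -1.65 to -0.47, 2.08-fold, adjusted p = 0.0255), and it was not called without the array titled PC3 miR-CON (-0.88, adjusted p = 0.133), without PC3 miR-410 (-1.24, adjusted p = 0.0542) or without C42B miR-CON (-0.83, adjusted p = 0.0555). ITGA2B, its platelet partner, differed by -0.22 (adjusted p = 0.409).

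ITGB5, another vitronectin receptor subunit, had 7.20 on both arrays titled PC3, against 6.95 (miR-410) and 6.89 (miR-CON) on the arrays titled C42B, a difference of 0.28 that was not called (adjusted p = 0.272). ITGB6, an epithelial subunit that also activates latent TGF-beta, had 3.17 (miR-410) and 2.60 (miR-CON) on the arrays titled PC3, against 3.45 (miR-410) and 4.65 (miR-CON) on the arrays titled C42B. Its difference of -1.17 ± 0.43 (SE, interval -2.23 to -0.11) was not called (adjusted p = 0.104). This difference moved between -0.57 without the array titled C42B miR-CON and -1.77 without C42B miR-410. ITGA8, an RGD receptor subunit that pairs with beta 1, differed by 0.47 (adjusted p = 0.105). Over the 9 RGD receptor subunits, ITGB1 among them, 3 were called lower and 0 higher (8.42% and 8.4% of all genes), with a median of -1.06.

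**Figure D2:**
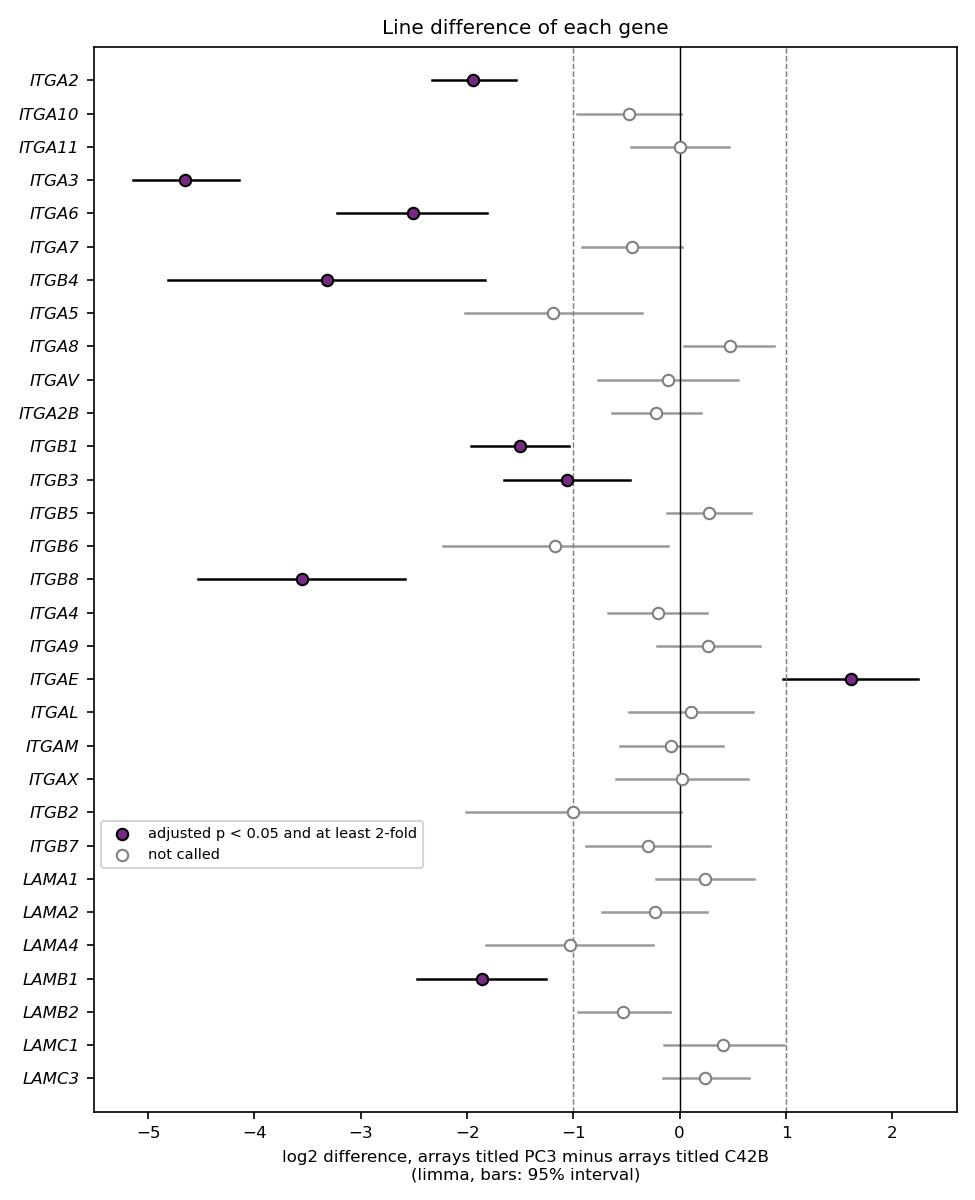
Log2 difference of each gene, the arrays titled PC3 minus the arrays titled C42B (horizontal axis), with 95% intervals from limma as bars. Filled points were called at an adjusted p under 0.05 and at least 2-fold, 8 of them to the left of the dashed line at -1 and ITGAE to the right of the dashed line at 1.

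The integrins known from leukocytes and as receptors for endothelial ligands differed little between lines apart from ITGAE and ITGB2. ITGAE, the alpha E subunit that with beta 7 binds E-cadherin on epithelial cells, had 9.23 (miR-410) and 8.90 (miR-CON) on the arrays titled PC3, against 7.75 (miR-410) and 7.17 (miR-CON) on the arrays titled C42B. Both arrays titled PC3 were higher. The log2 difference was 1.61 ± 0.25 (SE, interval 0.97 to 2.24, 3.04-fold, adjusted p = 0.00871). Its partner ITGB7 had 5.28 (miR-410) and 4.71 (miR-CON) on the arrays titled PC3, against 5.22 (miR-410) and 5.36 (miR-CON) on the arrays titled C42B, so that the lines overlapped (difference -0.30, adjusted p = 0.423).

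ITGB2, the beta 2 subunit of leukocyte integrins, had 4.95 (miR-410) and 5.76 (miR-CON) on the arrays titled PC3, against 5.88 (miR-410) and 6.84 (miR-CON) on the arrays titled C42B. Its line difference of -1.0 ± 0.41 (SE, interval -2.01 to 0.01) was not called (adjusted p = 0.135). With the construct by title as a second term of the fit, the same difference was called. ITGB2 differed by -1.48 without the array titled C42B miR-410 and by -0.53 without C42B miR-CON. Its alpha partners ITGAL, ITGAM and ITGAX differed by 0.11, -0.08 and 0.02, and ITGA4 and ITGA9, which can pair with beta 1, by -0.20 and 0.27, with adjusted p from 0.374 to 0.968. Of these 8 subunits 1 was called higher and 0 lower (8.4% and 8.42% of all genes), with a median of -0.03. The 7 measured leukocyte markers had a mean RMA value of 5.0 (miR-410) and 5.21 (miR-CON) on the arrays titled PC3, against 5.20 (miR-410) and 5.36 (miR-CON) on the arrays titled C42B. PTPRC, the pan-leukocyte phosphatase CD45, had 3.39 (miR-410) and 3.78 (miR-CON) on the arrays titled PC3, against 3.61 (miR-410) and 4.35 (miR-CON) on the arrays titled C42B, each below the array median. CD68, which is not restricted to leukocytes, was the 1 marker called (lower, -1.80).

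Of the 7 measured laminin chains, LAMB1 was called lower on the arrays titled PC3 (8.42% of all genes were) and none was called higher (8.4%). LAMB1, the beta 1 chain of the widely expressed laminins, had 7.53 (miR-410) and 7.23 (miR-CON) on the arrays titled PC3, against 9.51 (miR-410) and 8.98 (miR-CON) on the arrays titled C42B. The lines differed by -1.86 ± 0.24 (SE, interval -2.47 to -1.26, 3.64-fold, adjusted p = 0.00463). LAMC1, the gamma 1 chain with which it assembles, had 9.94 (miR-410) and 9.78 (miR-CON) on the arrays titled PC3, against 9.18 (miR-410) and 9.71 (miR-CON) on the arrays titled C42B. Its difference of 0.41 had the opposite sign from that of LAMB1 and was not called (adjusted p = 0.252).

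LAMA4, the alpha 4 chain of vascular and mesenchymal laminins, had 6.78 (miR-410) and 6.76 (miR-CON) on the arrays titled PC3, against 7.35 (miR-410) and 8.27 (miR-CON) on the arrays titled C42B. Its difference of -1.03 ± 0.32 (SE, interval -1.82 to -0.25, 2.05-fold) was not called (adjusted p = 0.065). This difference was -1.49 without the array titled C42B miR-410 and -0.58 without C42B miR-CON. LAMB2, the beta 2 chain of synaptic and kidney laminins, differed by -0.53 (adjusted p = 0.0807). LAMA1, LAMA2 and LAMC3 differed by 0.24, -0.23 and 0.24, with adjusted p of 0.402, 0.455 and 0.343.

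The array titled miR-410 was then set against the array titled miR-CON within each line. Each difference is that of 1 array against 1 array, so it has no replicate check and no p-value, and genes were counted by fold alone. Within the arrays titled C42B, 2 of the 31 genes were at least 2-fold lower with miR-410 and 0 were at least 2-fold higher, where 2.26% and 1.35% of all genes were. ITGB4 was 7.27 with miR-410 and 9.20 with miR-CON, a log2 difference of -1.93 (3.81-fold lower), which ranked 113 from the lowest. ITGB6 was 3.45 with miR-410 and 4.65 with miR-CON, a difference of -1.20 (2.29-fold lower), with both values below the array median.

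The alpha partners of these 2 subunits were not lower with miR-410. In the same arrays ITGA6, the alpha partner of ITGB4, was 0.28 higher with miR-410 (log2), and ITGAV, the alpha partner of ITGB6, was 0.64 higher (1.56-fold). The median absolute difference over all genes in this pair was 0.245, close to that of ITGA6. At 1.5-fold, which 1202 of all 17687 genes passed upwards and 1283 downwards, ITGAV and ITGA5 (0.84, 1.79-fold) were higher with miR-410, and ITGB4, ITGB6, ITGB2 (-0.95, 1.94-fold), LAMA4 (-0.92, 1.89-fold) and ITGAX (-0.59, 1.5-fold) were lower. ITGB8 was just outside this limit at -0.58, and LAMB1 and LAMC1, the paired beta 1 and gamma 1 laminin chains, differed by 0.54 and -0.53. Of the 31 genes, 11 were higher and 20 lower with miR-410, with a median of -0.21 as compared to 0.01 over all genes. The central 95% of all genes lay between -0.95 and 0.83.

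Within the arrays titled PC3, 1 of the 31 genes was at least 2-fold lower with miR-410 and 0 were at least 2-fold higher, where 0.656% and 0.441% of all genes were. ITGB8 was 2.64 with miR-410 and 3.69 with miR-CON, a log2 difference of -1.05 (2.07-fold lower), and both values lay below the array median. Its partner ITGAV was 0.32 higher. At 1.5-fold, which 641 of all genes passed downwards and 517 upwards, ITGB2 was also lower (-0.81, 1.75-fold) and ITGA6 was higher (0.73, 1.66-fold). ITGB4, which had the largest difference in the other pair, differed by -0.04 here, and ITGB6 was 0.56 higher. The 31 genes had a median of -0.00, as compared to -0.01 over all genes, with 15 higher and 16 lower, and the central 95% of all genes lay between -0.66 and 0.62. By the genotype and description fields of these 2 arrays the constructs are exchanged, and then every sign in this pair turns, so that ITGB8 would be 2.07-fold higher with miR-410.

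**Figure D3:**
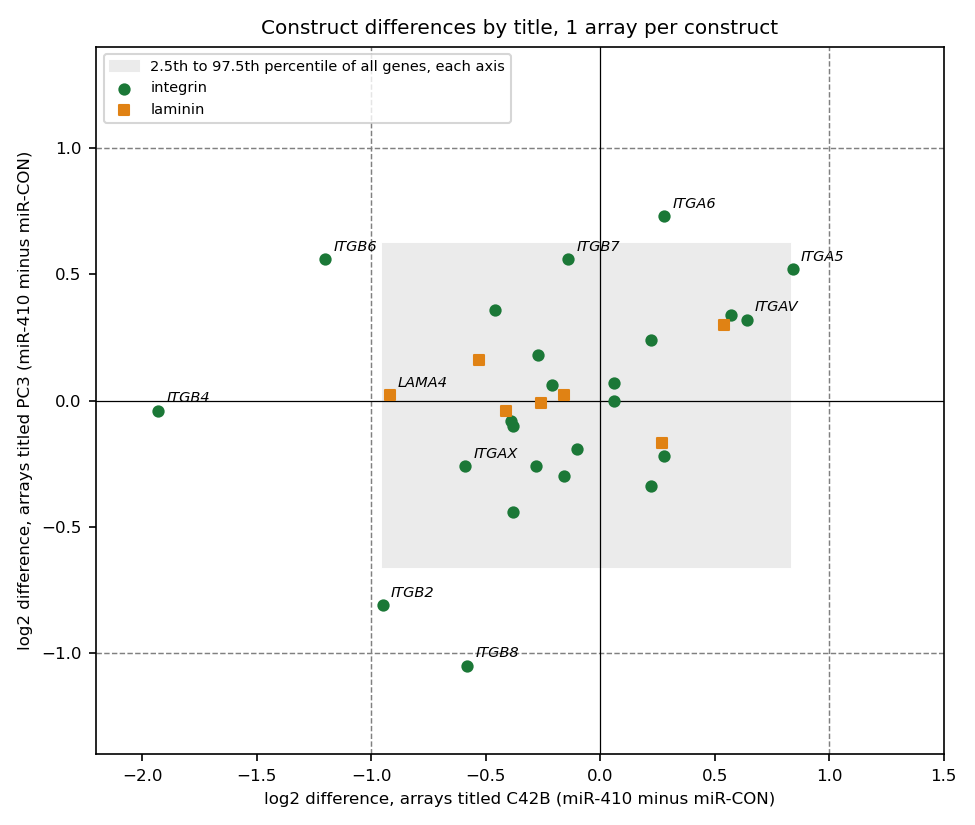
Log2 difference between the array titled miR-410 and the array titled miR-CON for each of the 31 genes, in the arrays titled C42B (horizontal axis) and in the arrays titled PC3 (vertical axis), with dashed lines at 2-fold and the central 95% of all genes on each axis shaded. ITGB4 and ITGB6 lie to the left of the shaded area, ITGB8 lies under it, and ITGB2 lies at its lower left.

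By title, ITGB2 was the 1 gene of the 31 that was at least 1.5-fold lower with miR-410 in both pairs, an order that 0.492% of all genes had, and 0 of the 31 were at least 1.5-fold higher in both, where 0.339% of all genes were. ITGB8 was lower in both pairs too, by 0.58 in the arrays titled C42B and by 1.05 in those titled PC3. ITGA5 was higher in both, by 0.84 in the arrays titled C42B and by 0.52 in those titled PC3. With the constructs of the arrays titled PC3 exchanged, as their other fields have them, the differences of ITGB2, ITGB8 and ITGA5 would have opposite signs in the 2 pairs. Over the 31 genes the 2 differences had the same sign for 19 (61.3%), as compared to 53.0% of all genes. Of the 8 leukocyte and endothelial ligand receptors, 7 had the same sign in both, and 7 were below 0 in the arrays titled C42B and 6 in those titled PC3. Of all 17687 genes, 8674 and 9035 were below 0 in these pairs. Of the 7 measured leukocyte markers, 5 were below 0 and 2 above it in the arrays titled C42B, and likewise in those titled PC3. For PTPRC the differences were -0.74 and -0.38, and for CD68 they were 0.55 and 0.15. The part of leukocyte genes as a group in the values of ITGB2 was not tested.

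Genes that act beside the integrins were compared between lines as 3 lists. The list of adaptors held genes that link integrin tails to actin, and also kinases and regulators of integrin activation. Of 24 measured adaptors, 10 (41.7%) were called lower on the arrays titled PC3 and 2 higher, where 8.42% and 8.4% of all genes were, with a median of -0.66. The lowest were TNS3 and TNS4, tensins of focal and fibrillar adhesions, and FERMT1, the integrin activator kindlin-1. TNS3 had 4.23 (miR-410) and 4.41 (miR-CON) on the arrays titled PC3, against 9.53 (miR-410) and 9.67 (miR-CON) on the arrays titled C42B (difference -5.28, adjusted p = 0.000101). TNS4 differed by -3.92 (15.2-fold, adjusted p = 0.00339), or by -3.29 (9.78-fold) without the array titled C42B miR-CON and -4.56 (23.5-fold) without C42B miR-410, and FERMT1 by -2.85 (adjusted p = 0.00316).

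The adaptors called higher on the arrays titled PC3 were PTK2B, a kinase related to focal adhesion kinase (1.83, adjusted p = 0.0065), and TNS2, another tensin (1.06, adjusted p = 0.0119). TNS2 was not called without the array titled PC3 miR-CON (0.91, adjusted p = 0.0846). Of the adaptors called lower, SHARPIN, known as an inhibitor of integrin activation, had the smallest difference (-1.23, adjusted p = 0.00974). It was not called without PC3 miR-CON (-1.03). KANK1, also called lower (-1.45, adjusted p = 0.0127), was likewise not called without PC3 miR-CON (-1.18), and it lay below the array median on every array. Within the arrays titled C42B, TNS4 was 1.27 lower and PARVA, the alpha-parvin of focal adhesions, 1.02 higher with miR-410.

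Of 18 measured integrin ligands, 9 (50%) were called lower on the arrays titled PC3 (8.42% of all genes) and 0 higher (8.4%), with a median of -1.19. The lowest were EDIL3, an RGD ligand of alpha V receptors (-7.08, adjusted p = 0.000142), TNC, the matrix protein tenascin-C (-5.42, adjusted p = 0.000138), and TGFB1, whose latent form is an alpha V ligand (-3.90, adjusted p = 0.000227). EDIL3 had 3.67 (miR-410) and 2.84 (miR-CON) on the arrays titled PC3, against 10.23 (miR-410) and 10.43 (miR-CON) on the arrays titled C42B. The smallest called differences were those of TGFB3 (-1.14, adjusted p = 0.00924), MFGE8 (-1.24, adjusted p = 0.00638) and CCN2 (-1.64, adjusted p = 0.00438). TGFB3 was not called without the array titled PC3 miR-410 (-1.07, adjusted p = 0.0647).

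Within pairs, 3 of the 18 ligands were at least 2-fold apart. In the arrays titled C42B 1 was lower and 1 higher with miR-410, where 2.26% and 1.35% of all genes were, and in those titled PC3 1 was lower, where 0.656% were. NPNT, the alpha 8 beta 1 ligand nephronectin, was 4.52 with miR-410 and 6.93 with miR-CON in the arrays titled C42B (-2.41). FBN1, which encodes fibrillin-1, was 9.24 with miR-410 and 7.21 with miR-CON there (2.03), and its line difference of -3.58 (12.0-fold, adjusted p = 0.0138) was -4.60 (24.2-fold) without the array titled C42B miR-CON and -2.57 (5.93-fold) without C42B miR-410. FN1, which encodes fibronectin, was 8.47 with miR-410 and 9.50 with miR-CON in the arrays titled PC3 (-1.03).

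All 9 measured partners of laminin and of the alpha 6 beta 4 integrin in basement membranes and hemidesmosomes were lower on both arrays titled PC3 than on both arrays titled C42B (29.4% of all genes were), and 6 (66.7%) were called lower (8.42% of all genes), with a median of -1.79. The lowest were NTN4, which encodes the laminin-related netrin-4 (-5.12, adjusted p = 0.000327), NID1, whose product nidogen binds the laminin gamma 1 chain (-4.99, adjusted p = 0.000146), and DST, which encodes a plakin that links beta 4 to keratins (-3.54, adjusted p = 0.000754). NID1 had 3.75 (miR-410) and 3.69 (miR-CON) on the arrays titled PC3, against 8.47 (miR-410) and 8.96 (miR-CON) on the arrays titled C42B. The smallest called were HSPG2, which encodes perlecan (-1.09, adjusted p = 0.0472), PLEC, the other hemidesmosome plakin (-1.79, adjusted p = 0.0066), and NID2 (-2.31, adjusted p = 0.000881). HSPG2 was not called without the array titled PC3 miR-CON (-0.89, adjusted p = 0.193), without PC3 miR-410 (-1.29, adjusted p = 0.0792) or without C42B miR-CON (-0.72, adjusted p = 0.0896). None of the 9 was 2-fold apart within a pair.

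**Figure D4:**
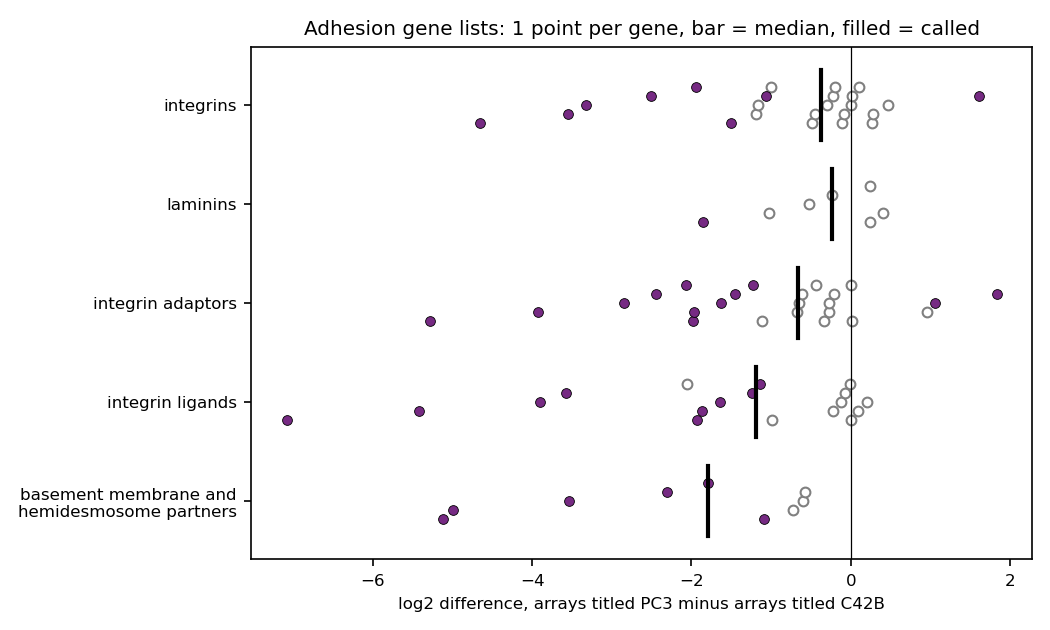
Log2 difference between the arrays titled PC3 and the arrays titled C42B (horizontal axis) for integrins, laminins and the 3 lists of genes that act with them, with 1 point per gene, black bars at the medians and filled points for called genes. The medians of adaptors, ligands and basement membrane partners lie at -0.66, -1.19 and -1.79, and all called ligands and basement membrane partners lie to the left of 0.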

How the data were processed

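RNA from 4 stable transfectants was hybridised to Clariom S arrays, 1 array per line and construct. The authors processed the scans in Partek by RMA, as the submitters' processing notes also name, and the deposited values are log2 RMA values for each probe set. Scanner files were not used here, so neither background nor array batch could be checked, and precision is limited by the number of arrays. Of 21448 probe sets, 17709 had 1 gene symbol in the platform table and 3739 had none listed. Probe sets of a gene were averaged (20 genes), which left 17687 genes.

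Lines were compared in R 4.3.3 by limma 3.58.1, the line by title being the only term (2 residual degrees of freedom, prior degrees of freedom 3.59), Benjamini-Hochberg adjustment over all genes, and calls at an adjusted p under 0.05 and at least 2-fold. The labels do not say how the cultures were derived beyond 1 transfectant per array, so p-values measure only the spread between these arrays. Construct differences are those of single arrays and were not tested.

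Values on every array are given for genes called between lines or at least 2-fold apart within a pair and for some of their known partners. For other partners, such as ITGA2B and ITGA8, only the line difference is given. From the other lists, the 3 highest and 3 lowest called line differences and genes at least 2-fold apart within a pair are named. The other values in the text were chosen after they were seen. The genes and lists were chosen with earlier results of these data known. Genes of the other lists that are not counted as measured are not reported here. Symbols and promoters came from RefSeq (GRCh38.p14). Figures and sequence counts used pandas 2.3.3, NumPy 2.4.6 and Matplotlib 3.10.9 under Python 3.11.15.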

Additional observations from a re-analysis of the deposited data

How the results depend on the processing

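Between lines, 9 genes were called, and the sign of each was kept under every alternative in which it was tested. An unmoderated fit with line and construct, which leaves 1 residual degree of freedom, called 0 of the 31 and 0 of all 17687 genes at 2-fold (7 and 2589 at an unadjusted p under 0.05). Requiring at least 4-fold left 4, ITGA3, ITGA6, ITGB4 and ITGB8. Leaving out 1 array at a time gave 8 to 12 calls, a lone array being assumed to vary as the other line's did. The construct as a second term gave 11, a variance trend 10, and the remaining alternatives (centring on array medians, genes at or above the median only, all probe sets, no minimum fold) gave 9 each. ITGB3 and ITGB8 were not among the genes at or above the median, and ITGA5 and LAMA4 were called there in their place. In the arrays titled C42B, where 2 genes passed 2-fold, 7 passed 1.5-fold (of all genes, 1202 upwards and 1283 downwards) and 1 passed 3-fold (33 and 176), 1 (ITGB4) passed with genes below the array median removed, and 3 passed with a loess trend subtracted, LAMA4 being added at -1.02. In the arrays titled PC3, where 1 passed 2-fold, 3 passed 1.5-fold (of all genes, 517 upwards and 641 downwards), 0 passed 3-fold (19 and 36) and 0 passed with genes below the array median removed. With the construct named by the genotype and description fields the 1 gene, ITGB8, was higher by 1.05 instead of lower. No paired analysis was possible because every group holds 1 array and the replicate numbers pair none, apart from matching arrays of the 2 lines by construct, as the construct term does. With 1 array per construct, a difference within a pair has no error.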
